A study of Mus musculus with 6 samples.

Results

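The collagen genes of the mouse were examined in RNA libraries of sorted primary spermatocytes, the germ cells in meiotic prophase. Every gene of the deposited table whose symbol is Col, a number, the letter a and a number was taken, which gave 44 of 53700 genes. The libraries came from 3 circSry KO samples, in which the circular RNA made from the gene Sry is knocked out, and from 3 WT samples. All mice were C57BL/6 adults of 8 weeks, and cells of both genotypes had been sorted by flow cytometry after Hoechst staining of testis suspensions. How the knockout was made, and whether a library came from 1 animal or from pooled animals, the labels do not say. The p-values therefore cover the spread among these 6 libraries, which may be technical.

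Collagens are the triple-helical proteins of the extracellular matrix, each helix being wound from alpha chains of the same or of different genes. Fibrillar collagens build the fibrils of interstitial tissue, type IV collagens build the network of basement membranes, and the other classes decorate fibrils, form beaded filaments or span the cell membrane. In the testis the wall of the seminiferous tubule holds a basement membrane, fibrils and peritubular myoid cells, with fibroblasts and other cells in the interstitium, while spermatocytes lie inside the tubule.

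The libraries held 8191397 to 9294723 estimated counts in circSry KO and 7400360 to 8422943 in WT. Levels are given as CPM, counts scaled to the same library total, and, where genes are compared with each other, as TPM, which also divides by transcript length. Sry had a count of 0 in all 6 libraries, and since a count per gene is no measure of a circular RNA, it does not check the knockout. Markers of spermatocytes, 8 of 8 detected in all libraries, summed to 540, 478 and 1772 CPM in circSry KO replicates 1, 2 and 3 and to 2276 to 3338 CPM in WT. The third KO library stood apart from the other KO libraries, and calls that depend on it are given with and without it.

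At least 1 count in each of the 6 libraries was found for 41 of the 44 collagen genes. The exceptions were Col4a6, Col9a2 and Col10a1. The levels covered a wide range, and a pair of genes stood highest in TPM. Col22a1, a collagen of tissue junctions, stood at 379, 354 and 400 TPM in circSry KO, against 427, 229 and 206 TPM in WT. Col16a1, a collagen associated with fibrils, stood at 47.2, 46.2 and 221 TPM in circSry KO, against 175, 150 and 111 TPM in WT. In TPM Col22a1 exceeded Col16a1 in each library, and no other collagen gene passed 37.9 TPM, the level of Col1a2 in KO replicate 2. In CPM Col16a1 was the higher in WT replicates 2 and 3, at 243 against 143 and 203 against 127 CPM, and Col22a1 in the other libraries. Together Col22a1 and Col16a1 made up 64.3%, 55.9% and 88.2% of the summed collagen TPM in circSry KO and 81.9%, 71.9% and 69.3% in WT. Of the summed collagen CPM, which does not divide by length, they made up 36.0%, 24.7% and 71.4% in circSry KO and 63.7%, 50.95% and 48.4% in WT. In the order of mean TPM they were followed by Col20a1, Col2a1, Col6a4, Col5a1, Col1a2, Col3a1, Col9a3, Col15a1, Col1a1 and Col4a1. Among these 10 genes, the means of neighbours in the order differed by less than the SD over the 6 libraries.

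**Figure D1:**
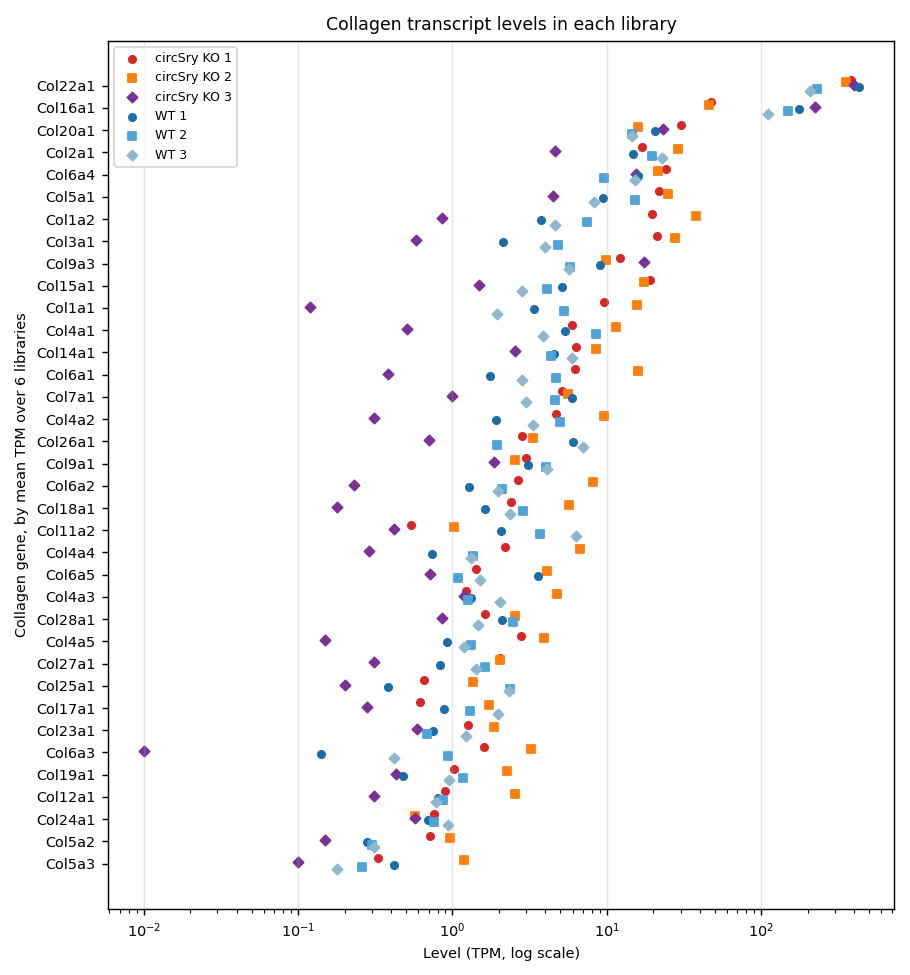
Level of each of the 36 collagen genes with enough counts to be tested, in TPM on a log scale, 1 point per library, with genes ordered by mean TPM. The 3 circSry KO libraries and the 3 WT libraries have their own colours. Col22a1 and Col16a1 lie above all others. For most genes circSry KO replicate 3 (purple) lies lowest, but not for Col22a1, Col16a1, Col20a1, Col6a4 or Col9a3.

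The comparison of circSry KO with WT asked which collagen mRNAs differ between sorted cells without and with circSry. No collagen gene passed: of the 36 with enough counts, edgeR's quasi-likelihood test with Benjamini-Hochberg adjustment over 16829 genes called 0, the lowest adjusted p being 0.151. Over all genes tested 0.0% were called, the lowest adjusted p being 0.087. At an unadjusted p under 0.05 edgeR found 4 collagen genes higher (Col1a2, Col9a3, Col15a1 and Col23a1) and 1 lower (Col25a1), against a background of 13.6% higher and 9.84% lower. DESeq2 called 0 collagen genes, where it called 11.5% of all genes. At an unadjusted p under 0.05 it found 9 collagen genes, against 26.1% of all genes. By limma-voom 0 collagen genes were called, with 1 at an unadjusted p under 0.05, against 23.6% of all genes. In bulk RNA of sorted cells, fewer cells of a type and less RNA per cell cannot be told apart.

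The fold changes nonetheless leaned to one side. Of the 36 tested genes 28 had a positive and 8 a negative log2 fold change, and the median was 0.74, beside 0.12 over all genes tested. This lean came from 2 of the 3 KO libraries. Against the WT mean, the median collagen gene lay at 0.84 and 1.10 on the log2 CPM scale in circSry KO replicates 1 and 2 and at -0.64 in replicate 3, while WT replicates 1, 2 and 3 lay at -0.16, 0.12 and 0.02. Of the 36 genes, 22 were higher in KO replicates 1 and 2 than in all WT libraries, where 30.9% of all genes were. In KO replicate 3, 27 of the 36 were lower than in all WT libraries, where 49.9% of all genes were. Both held at once for 17 genes, against 11.7% of all genes.

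The 3 KO libraries all exceeded the 3 WT libraries for 1 collagen gene, Col23a1, against 11.6% of all genes. All 3 lay below WT for Col7a1 and Col11a2, against 16.9% of all genes; Col7a1 falls outside the rule for named genes and was chosen after its values were seen. These orders depend on how a library is scaled. The TMM factor of KO replicate 3 was the lowest, at 0.846. With TMM factors all 3 KO libraries lay above WT for 3 collagen genes, Col6a4, Col14a1 and Col23a1 (14.1% of all genes). They lay below it for 1, Col11a2 (14.3%). On that scale 21 genes were below all WT libraries in KO replicate 3 (40.2% of all genes), and 16 showed both patterns at once (8.83%).

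**Figure D2:**
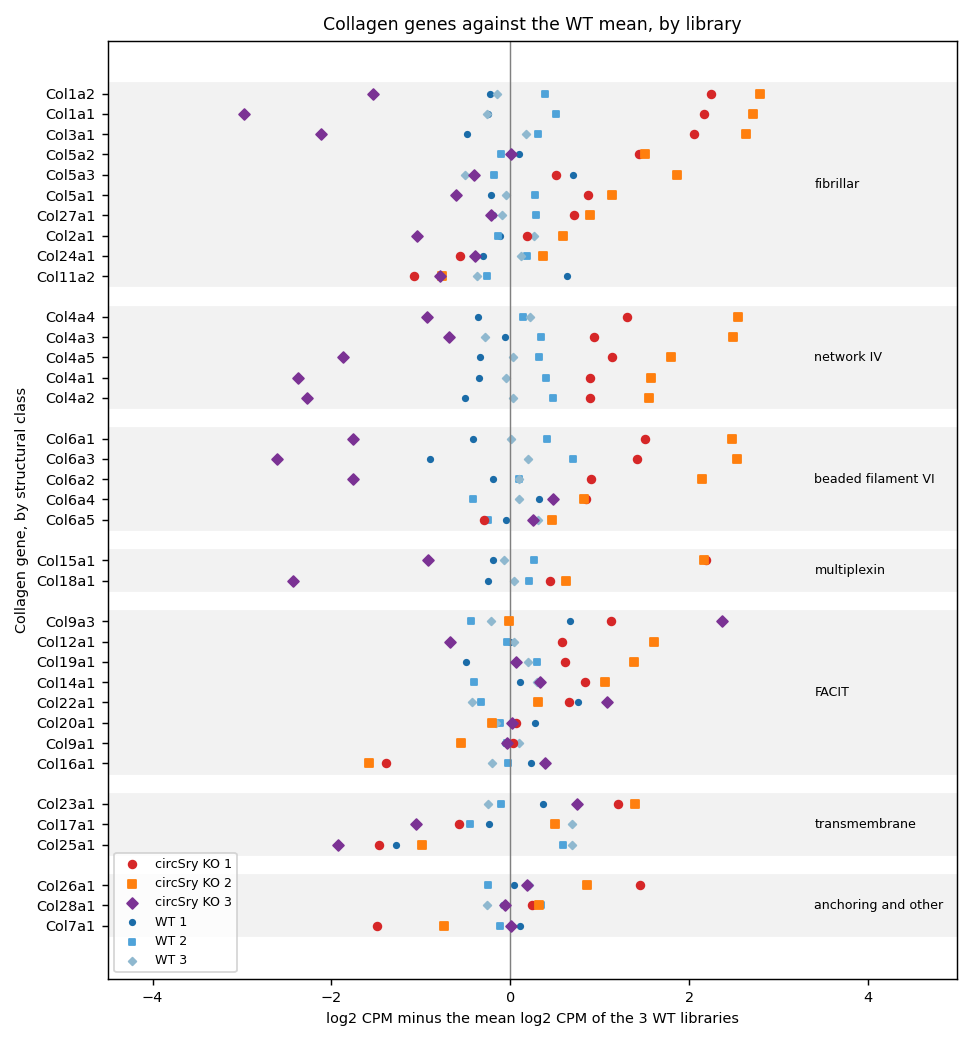
Log2 CPM (TMM-scaled) of the 36 tested collagen genes minus the mean of the 3 WT libraries, 1 point per library, with genes grouped by structural class. In the fibrillar, type IV and type VI classes, circSry KO replicates 1 and 2 (red, orange) mostly lie right of 0 and replicate 3 (purple) mostly left of it, with the WT libraries near 0.

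Without circSry KO replicate 3 edgeR called 18 of 40 tested collagen genes higher and 2 lower, Col16a1 and Col7a1. The 18 include Col4a6, which passed the count filter of that fit only through KO replicates 1 and 2. In that fit 18.5% of all 17948 genes tested were called higher and 16.2% lower, and the median log2 fold change was 0.93 for collagen genes and 0.02 for all. Leaving out the library that differed gave a fitted coefficient of variation between replicates of 0.289, against 0.453 with all 6, so adjusted p-values of that fit are too small. With all 6 libraries the gene-wise coefficient of variation of the collagen genes had a median of 0.491, beside 0.414 over all genes, and 24 of the 36 lay above the median of all genes.

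The 3 largest positive log2 fold changes of the tested collagen genes were those of fibrillar genes, Col1a2, Col1a1 and Col3a1. Of the 11 genes of this class 10 were tested, with a median log2 fold change of 0.81. Col1a2 encodes the second chain of type I collagen, the main fibril protein of connective tissue. It stood at 83.7, 127 and 4.84 CPM in circSry KO replicates 1, 2 and 3, against 14.3, 24.0 and 15.7 CPM in WT. KO replicates 1 and 2 were thus 4.65 and 7.05 times the WT mean and replicate 3 was 0.269 times it, and no KO library overlapped the WT libraries. The log2 fold change was 1.98 ± 0.85 (SE, n = 3 each; edgeR adjusted p = 0.207), and 2.48 without KO replicate 3 (edgeR adjusted p = 0.000438, the lowest of its alternatives, the highest being 0.745).

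Col1a1, which encodes the partner chain of type I collagen, followed Col1a2 library by library. Its level was 40.7, 62.0 and 0.753 CPM in circSry KO, against 7.16, 13.3 and 7.36 CPM in WT. The 0.753 CPM rest on 7 counts. The log2 fold change was 1.88 ± 1.03 (SE; edgeR adjusted p = 0.304), and 2.40 without KO replicate 3 (edgeR adjusted p = 0.000811, the lowest of its alternatives, the highest being 0.987). On log2(TPM + 0.1) it was of the other sign, -0.06.

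Col3a1, the chain of type III collagen of distensible tissues, showed the same order of libraries. It stood at 53.3, 82.5 and 2.26 CPM in circSry KO, against 8.65, 16.4 and 14.2 CPM in WT. KO replicates 1 and 2 were 4.07 and 6.30 times the WT mean, and replicate 3 was 0.173 times it. The log2 fold change was 1.80 ± 0.91 (SE; edgeR adjusted p = 0.266), and 2.30 without KO replicate 3 (edgeR adjusted p = 0.000817, the lowest of its alternatives, the highest being 0.688).

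The promoters of Col1a2 and Col3a1 are shown because these genes moved together in the libraries while their promoter letters differ. Each window has 300 bases around the start of the gene, from RefSeq on GRCm38.p6, written on the plus strand, which is the gene's strand for both. Col1a2 is at chr6:4505368-4505667, with capitals at CCAAT and at its reverse complement ATTGG. Col3a1 is at chr1:45311288-45311587, with capitals at TATAAA. The first is 61.0% and the second 37.7% G and C.
Col1a2: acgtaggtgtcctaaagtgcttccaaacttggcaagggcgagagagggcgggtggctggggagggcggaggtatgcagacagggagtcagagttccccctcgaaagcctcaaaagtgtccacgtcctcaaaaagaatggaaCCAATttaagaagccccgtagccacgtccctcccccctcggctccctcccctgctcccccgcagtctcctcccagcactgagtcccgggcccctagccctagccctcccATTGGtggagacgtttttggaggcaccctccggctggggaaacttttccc
Col3a1: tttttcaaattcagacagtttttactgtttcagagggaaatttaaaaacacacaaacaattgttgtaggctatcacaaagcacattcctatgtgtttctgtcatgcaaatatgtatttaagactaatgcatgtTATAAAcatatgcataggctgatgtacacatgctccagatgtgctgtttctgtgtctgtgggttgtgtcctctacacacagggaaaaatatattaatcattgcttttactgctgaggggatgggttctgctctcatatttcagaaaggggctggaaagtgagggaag
Of the 44 collagen genes 35 had such a window and 38 windows were found. Read on both strands, with each motif counted on its own and overlaps between motifs allowed, CCAAT was in 34.2% of them and in 37.4% of all 32851 windows. TATAAA was in 13.2% against 13.6%, and GGGCGG in 60.5% against 35.7%. A match describes letters and is not evidence of binding.

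Type V collagen starts and regulates type I fibrils. Its chain gene Col5a1 stood at 39.7, 49.4 and 11.6 CPM in circSry KO, against 17.8, 27.3 and 20.8 CPM in WT. Its log2 fold change was 0.63 ± 0.47 (SE; edgeR adjusted p = 0.441), and 0.95 without KO replicate 3 (edgeR adjusted p = 0.0264, the lowest of its alternatives, the highest being 0.809). Col5a2 was low, at 3.96, 4.27 and 1.08 CPM in circSry KO and 1.35, 1.24 and 1.31 CPM in WT, with a log2 fold change of 1.26 ± 0.57 (SE; edgeR adjusted p = 0.223). For Col5a2 it was 1.58 without KO replicate 3 (edgeR adjusted p = 0.0195, the lowest of its alternatives, the highest being 0.613). Both were above WT in KO replicates 1 and 2 and below it in replicate 3 on the CPM scale, as the type I and III genes were; with TMM factors Col5a2 in KO replicate 3 was within WT.

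Col2a1 and Col11a2, chains of the fibrils of cartilage, did not share this order. Col2a1, the most abundant fibrillar gene by mean TPM, had 16.8, 28.7 and 4.62 TPM in circSry KO and 14.9, 19.5 and 22.9 TPM in WT. KO replicate 1 overlapped WT, replicate 2 was above it and replicate 3 below it. For Col2a1 the log2 fold change was 0.05 ± 0.43 (SE; edgeR adjusted p = 0.957), of either sign over the alternatives. Col11a2 stood at 2.60, 3.42 and 2.69 CPM in circSry KO, below all WT libraries at 8.78, 4.97 and 4.39 CPM. Its log2 fold change was -0.99 ± 0.46 (SE; edgeR adjusted p = 0.231).

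Type IV collagens, the network of basement membranes, shared 1 order: all 5 tested genes of 6 were above WT in KO replicates 1 and 2 and below it in replicate 3. Col4a1, which with Col4a2 makes the common heterotrimer of the network, stood at 28.6, 47.4 and 2.26 CPM in circSry KO, against 11.5, 21.01 and 14.7 CPM in WT. Its log2 fold change was 0.72 ± 0.78 (SE; edgeR adjusted p = 0.606), below 0 on the TPM scales and 1.20 without KO replicate 3 (edgeR adjusted p = 0.0173, the lowest of its alternatives, the highest being 0.996). Its partner Col4a2, chosen after its values were seen, stood at 25.3, 41.5 and 2.15 CPM in circSry KO and 9.05, 19.8 and 13.8 CPM in WT, with a log2 fold change of 0.69 (edgeR adjusted p = 0.621), and 1.16 without KO replicate 3 (edgeR adjusted p = 0.0254, the lowest of its alternatives, the highest being 0.997). The order of the 6 libraries was the same for both genes.

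Col4a4 is a chain of another type IV heterotrimer, which is known from kidney and testis. It stood at 18.8, 46.1 and 3.12 CPM in circSry KO, against 5.54, 8.58 and 8.67 CPM in WT. Its log2 fold change was 1.56 ± 0.74 (SE; edgeR adjusted p = 0.242) and 2.01 without KO replicate 3 (edgeR adjusted p = 0.00317, the lowest of its alternatives, the highest being 0.774). Col4a3, its neighbour, stood at 8.94, 27.6 and 2.26 CPM in circSry KO and 4.19, 6.09 and 3.68 CPM in WT, with a log2 fold change of 1.46 (edgeR adjusted p = 0.262), and 1.88 without KO replicate 3 (edgeR adjusted p = 0.0085, the lowest of its alternatives, the highest being 0.821). Col4a6, too low to be tested with all libraries, was at 2.49, 4.88 and 0 CPM in circSry KO and 0.270, 0.622 and 0.356 CPM in WT. The count of 0 in KO replicate 3 allows up to 0.323 CPM, counting error only. Without that library the log2 fold change of Col4a6 was 3.02. The gene entered that fit only through its counts in KO replicates 1 and 2. Its direction there followed from the filter, so no p-value is given. Col4a3 and Col4a6 were chosen after their values were seen.

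The type IV genes lie as head-to-head pairs, so that partners are read in opposite directions from 1 short stretch. The annotated starts of Col4a1 and Col4a2 on chromosome 8 overlap by 22 bases. Col4a4 and Col4a3 on chromosome 1 are 71 bases apart, and Col4a6 and Col4a5 on chromosome X 1308 bases apart (GENCODE M21, GRCm38). The libraries do not mark strand, so counts in the overlap cannot be divided between Col4a1 and Col4a2. The window of Col4a2, at chr8:11312555-11312854 on the plus strand, is shown because it shares 78 bases with that of Col4a1, with capitals at CCAAT. It is 73.7% G and C.
Col4a2: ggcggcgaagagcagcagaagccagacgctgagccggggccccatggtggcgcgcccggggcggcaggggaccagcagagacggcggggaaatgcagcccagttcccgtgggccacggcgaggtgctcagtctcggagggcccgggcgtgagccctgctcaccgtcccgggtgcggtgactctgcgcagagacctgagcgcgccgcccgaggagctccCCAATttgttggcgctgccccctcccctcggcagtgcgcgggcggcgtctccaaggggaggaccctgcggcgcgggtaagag

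Type VI collagens form beaded filaments beside basement membranes, and 5 of their 6 genes were tested, with a median log2 fold change of 1.17. Col6a1, Col6a2 and Col6a3, the chains of the common heterotrimer, were chosen after their values were seen. Col6a1 stood at 20.9, 42.8 and 1.61 CPM in circSry KO, against 5.13, 10.1 and 7.24 CPM in WT. All 3 were above WT in KO replicates 1 and 2 and below it in replicate 3, with log2 fold changes of 1.53, 1.17 and 1.47 for Col6a1, Col6a2 and Col6a3. The edgeR adjusted p was 0.307, 0.411 and 0.437. Their levels in KO replicate 3 rest on 15, 9 and 1 counts. Without KO replicate 3 the 3 log2 fold changes were 2.01, 1.64 and 1.98, with edgeR adjusted p of 0.00269, 0.0102 and 0.0124, the lowest of their alternatives, the highest being 0.904, 0.972 and 0.923.

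Col6a4, the most abundant type VI gene by mean TPM, did not show the low level in KO replicate 3. It stood at 33.1, 33.7 and 21.2 CPM in circSry KO, against 22.0, 14.3 and 19.6 CPM in WT. KO replicates 1 and 2 were above WT and replicate 3 was within it on the CPM scale. With TMM factors all 3 KO libraries were above WT. The log2 fold change was 0.70 ± 0.34 (SE, edgeR adjusted p = 0.246).

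The multiplexins Col15a1 and Col18a1 lie in basement membrane zones. Col15a1 stood at 31.1, 31.7 and 2.80 CPM in circSry KO, against 5.54, 8.33 and 6.29 CPM in WT. KO replicates 1 and 2 were 4.63 and 4.72 times the WT mean, and replicate 3 was 0.416 times it. The log2 fold change was 1.70 ± 0.71 (SE; edgeR adjusted p = 0.199) and 2.15 without KO replicate 3 (edgeR adjusted p = 0.000809, the lowest of its alternatives, the highest being 0.609). Col18a1, the source of endostatin, named after its values were seen, stood at 10.2, 11.96 and 0.968 CPM in circSry KO and 5.95, 8.95 and 7.60 CPM in WT. Its KO replicates 1 and 2 were above all WT libraries and replicate 3 below, as for Col15a1, with a log2 fold change of 0.03 ± 0.70 (SE; edgeR adjusted p = 0.982).

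Collagens of the FACIT class, which sit on the surface of fibrils or at tissue junctions, were mixed in direction. Of 8 tested genes 5 had a positive and 3 a negative log2 fold change. The split of the KO libraries seen in the fibrillar genes held for 1, against 11.7% of all genes. This was Col12a1, named after its values were seen. The log2 fold change of Col12a1 was 0.81 (edgeR adjusted p = 0.422), and 1.16 without KO replicate 3 (edgeR adjusted p = 0.0332, the lowest of its alternatives, the highest being 0.932). Col22a1 stood at 273, 221 and 301 CPM in circSry KO, against 280, 143 and 127 CPM in WT. WT replicate 1 overlapped the KO libraries, and the log2 fold change was 0.61 ± 0.41 (SE; edgeR adjusted p = 0.393). It was positive under each alternative tried.

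Col16a1 was low in KO replicates 1 and 2, where the type I genes were high. It stood at 89.7, 81.3 and 256 CPM in circSry KO, against 267, 243 and 203 CPM in WT. KO replicates 1 and 2 were 0.377 and 0.342 times the WT mean, while KO replicate 3 lay within the WT libraries on the CPM scale. On the log2 scale the difference was -0.58 ± 0.53 (SE; edgeR adjusted p = 0.537), and -1.55 without KO replicate 3 (edgeR adjusted p = 0.00324, the lowest of its alternatives, the highest being 0.852).

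Col9a3, a chain of type IX collagen known from cartilage, was highest in KO replicate 3. It stood at 27.4, 12.7 and 53.8 CPM in circSry KO, against 19.1, 9.45 and 10.6 CPM in WT. KO replicate 2 overlapped WT. Its log2 fold change was 1.41 ± 0.62 (SE; edgeR adjusted p = 0.213), and 0.55 without KO replicate 3 (edgeR adjusted p = 0.336, where its alternatives gave 0.0946 to 0.555). The other chains of its heterotrimer, named after their values were seen, were lower in CPM: Col9a1 stood at 7.35, 5.01 and 5.81 CPM in circSry KO and 6.62, 7.33 and 7.72 CPM in WT, and Col9a2 had 4 counts in all, each in KO replicate 3.

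Col14a1, a FACIT collagen of skin and tendon, stood at 20.0, 24.3 and 11.6 CPM in circSry KO, against 11.5, 8.70 and 13.7 CPM in WT, with a log2 fold change of 0.76 ± 0.37 (SE; edgeR adjusted p = 0.252). Col20a1 differed little between libraries. It stood at 36.3, 31.1 and 28.8 CPM in circSry KO and 40.4, 33.3 and 30.7 CPM in WT, a log2 fold change of -0.05 ± 0.30 (SE; edgeR adjusted p = 0.941) that was of either sign over the alternatives.

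Of the transmembrane collagens, Col23a1 was the collagen gene in which all KO libraries lay above WT on the CPM scale. It stood at 6.00, 7.08 and 3.55 CPM in circSry KO, against 3.11, 2.36 and 2.02 CPM in WT, and the log2 fold change was 1.19 ± 0.44 (SE; edgeR adjusted p = 0.160), and 1.31 without KO replicate 3 (edgeR adjusted p = 0.0275, the lowest of its alternatives, the highest being 0.815). Col25a1, known for binding amyloid in the brain, had the smallest p of the collagen genes. It stood at 1.70, 2.56 and 0.968 CPM in circSry KO, against 1.89, 8.20 and 8.43 CPM in WT. WT replicate 1 overlapped the KO libraries, and the log2 fold change was -1.77 ± 0.63 (SE; edgeR adjusted p = 0.151).

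Col7a1, the anchoring fibril chain of epithelia, stood at 2.72, 4.88 and 6.67 CPM in circSry KO, below WT on the CPM scale at 8.38, 7.71 and 8.07 CPM, with a log2 fold change of -0.64 ± 0.47 (SE; edgeR adjusted p = 0.437), and -1.17 without KO replicate 3 (edgeR adjusted p = 0.0397, the lowest of its alternatives, the highest being 0.814). The log2 fold changes of the tested collagen genes outside the naming rule ran from -0.64 for Col7a1 to 1.53 for Col6a1. The 8 genes with too few counts to be tested were Col4a6, Col6a6, Col8a1, Col8a2, Col9a2, Col10a1, Col11a1 and Col13a1. Of these 8, each stood below 3 CPM in every library except Col4a6. Their counts over the 6 libraries ran from 4 for Col9a2 to 72 for Col4a6.

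Summed over a class, the split of the KO libraries appeared in the fibrillar, type IV, type VI and multiplexin sums. The fibrillar sum was 301, 436 and 51.2 CPM in circSry KO, against 117, 152 and 141 CPM in WT. The type IV sum was 93.2, 182 and 10.5 CPM in circSry KO, against 33.5, 61.3 and 45.2 CPM in WT. The type VI sum was 75.2, 125 and 31.5 CPM in circSry KO, against 39.3, 40.0 and 44.0 CPM in WT. The sums of the 2 multiplexins were 41.3, 43.7 and 3.77 CPM in circSry KO and 11.5, 17.3 and 13.9 CPM in WT. In each of these 4 sums KO replicates 1 and 2 were above every WT library and KO replicate 3 was below. The FACIT sum, which Col22a1 and Col16a1 dominate, was 467, 403 and 662 CPM in circSry KO and 632, 454 and 402 CPM in WT, and the groups overlapped.

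**Figure D3:**
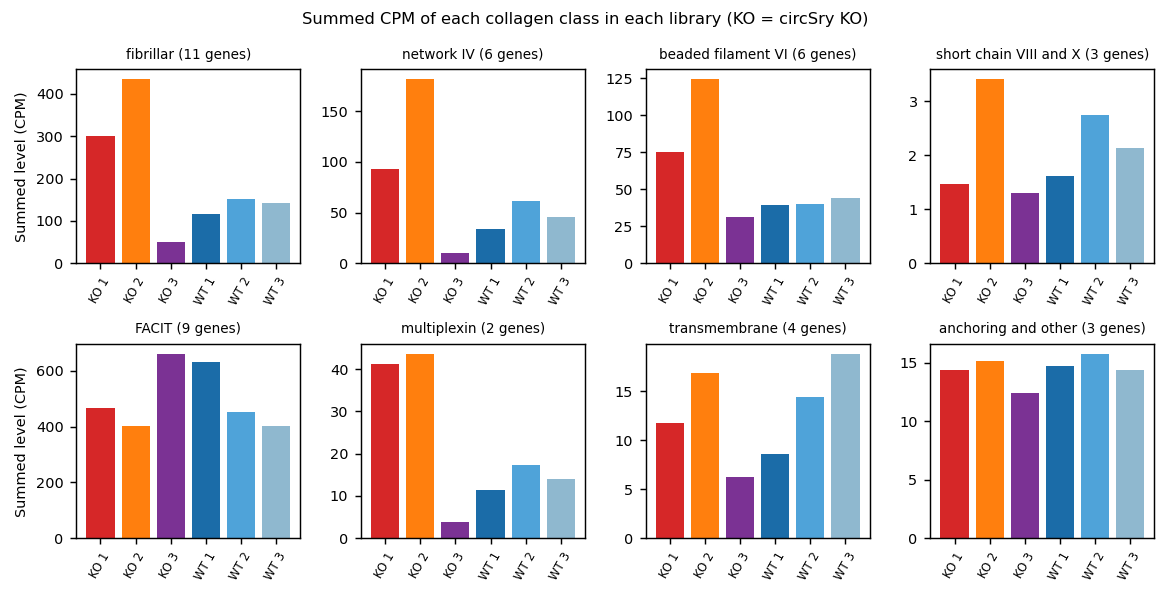
Summed CPM of each of 8 collagen classes in each library, 1 bar per library, with the 3 circSry KO libraries left of the 3 WT libraries and each panel on its own linear axis from 0. Fibrillar, type IV, type VI and multiplexin sums are highest in circSry KO replicates 1 and 2 and lowest in replicate 3, while the FACIT sum is highest in KO replicate 3.

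Collagen mRNAs are long, and the libraries differed in the levels of long genes. Of the 36 tested collagen genes 25 were among the longest 20% of all genes by effective length. Against the WT mean, the median gene of those 20% lay at -0.43, 0.08 and -0.85 on the log2 CPM scale in circSry KO replicates 1, 2 and 3 and at -0.32, 0.26 and 0.09 in WT. In KO replicate 3 long genes and collagen genes both lay below WT, whereas in KO replicate 1 long genes lay below WT and collagen genes above it. With each library's trend on length removed, 13 collagen genes were higher at an unadjusted p under 0.05, against 12.7% of all genes, and 1 was lower. In that fit edgeR called 0, with a smallest adjusted p of 0.157, and the median log2 fold change was 0.93, beside 0.05 over all genes.

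The enzymes and partners of collagens were read from 5 lists. Beside each list stands the share over all genes at an unadjusted p under 0.05 in edgeR, 13.6% higher and 9.84% lower. Among 17 tested genes of chain modification and folding 0 passed in edgeR, 0 were higher and 2 lower at an unadjusted p under 0.05, and the median log2 fold change was 0.0004. P4hb, the shared subunit of prolyl hydroxylase, stood at 101, 89.2 and 115 CPM in circSry KO and 136, 166 and 141 CPM in WT, with all KO libraries below all WT libraries. Such an order held for 4 of the 17 genes, against 16.9% of all genes. The 2 lower genes were Plod3, a lysyl hydroxylase, with a log2 fold change of -0.95 ± 0.40 (SE; edgeR adjusted p = 0.203), and P3h1, a prolyl hydroxylase, with -0.88 ± 0.35 (SE; edgeR adjusted p = 0.187). Mia3, which loads procollagen into export vesicles, had -0.62 ± 0.35 (SE; edgeR adjusted p = 0.317). Without KO replicate 3 edgeR called 4 of the 18 genes of this list then tested higher, against 18.5% of all genes, and 3 lower, against 16.2%. Plod3 was then at -1.35 and P3h1 at -1.12 (edgeR adjusted p = 0.0122 and 0.0222, the lowest of their alternatives, the highest being 0.596 and 0.551).

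Of 6 tested genes of procollagen processing and crosslinking 0 passed in edgeR, also at an unadjusted p under 0.05, and the median was 0.53. Pcolce, an enhancer of propeptide removal, stood at 47.2, 59.1 and 22.9 CPM in circSry KO and 47.3, 43.8 and 41.4 CPM in WT. Loxl1, a crosslinking enzyme, had a log2 fold change of 0.47 ± 0.36, and Adamts2, the propeptidase of type I collagen, had 1.17 ± 0.79 (SE). Of 8 tested receptors and uptake genes 0 passed in edgeR, also at an unadjusted p under 0.05, and the median was 0.58. Itga1, the alpha subunit of a collagen-binding integrin, stood at 36.0, 78.3 and 9.47 CPM in circSry KO and 21.2, 20.3 and 24.9 CPM in WT. Its partner subunit Itgb1 had a log2 fold change of 0.06 ± 0.49, Itga11 had 0.88 ± 0.48 and the uptake receptor Mrc2 had -1.01 ± 0.48 (SE).

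Of 4 tested genes of collagen breakdown and its inhibitors 0 passed in edgeR and 1 was higher at an unadjusted p under 0.05. This was Timp2, an inhibitor of matrix metalloproteinases, at 85.6, 135 and 42.8 CPM in circSry KO, above all WT libraries at 29.7, 37.3 and 31.3 CPM. Such an order held for 11.6% of all genes. The log2 fold change of Timp2 was 1.45 ± 0.39 (SE, edgeR adjusted p = 0.0968). DESeq2 called Timp2, the 1 gene it called of 49 tested in the 5 lists, where it called 11.5% of all genes. Timp3, a related inhibitor, had 1.04 ± 0.78 (SE; edgeR adjusted p = 0.446). Of 14 tested basement membrane partners 0 passed in edgeR, also at an unadjusted p under 0.05, and the median was 0.60. Lamb1, a laminin chain, stood at 38.4, 81.1 and 4.52 CPM in circSry KO and 7.57, 18.9 and 13.2 CPM in WT. Nid1, which links laminin to type IV collagen, had a log2 fold change of 2.25 ± 1.02, the laminin chain gene Lama2 had 1.04 ± 0.70, and Hspg2, which encodes perlecan, had 0.04 ± 0.69 (SE). Without KO replicate 3 edgeR called 3 of 10 tested genes of processing, 4 of 9 of the receptors, 2 of 5 of breakdown and 5 of 14 of the partners higher, against 18.5% of all genes, and 0 of these 4 lists lower. In that fit Nid1 was at 2.74, Lamb1 at 2.10, Timp2 at 1.67, Adamts2 at 1.62, Timp3 at 1.51, Lama2 at 1.47 and Itga1 at 1.28. Their edgeR adjusted p ran from 0.00179 for Timp2 to 0.018 for Adamts2, each the lowest of its gene's alternatives, while the highest ran from 0.418 for Timp2 to 0.977 for Timp3.

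Of the lists of cell type markers that hold no collagen, the peritubular myoid, stromal and spermatogonial sums showed the split of the KO libraries seen in the fibrillar and type IV sums. Col1a1, Col1a2 and Col3a1, which mark fibroblasts and interstitial cells, summed to 178, 272 and 7.85 CPM in circSry KO and to 30.1 to 53.7 CPM in WT. Peritubular myoid markers, 7 of 7 detected in all libraries, summed to 392, 275 and 58.1 CPM in circSry KO and to 84.7 to 98.6 CPM in WT. Markers of fibroblasts and stroma that are not collagens, 8 of 8 detected, summed to 322, 407 and 26.4 CPM in circSry KO and to 36.8 to 79.6 CPM in WT. For the myoid and stromal sums KO replicates 1 and 2 were above WT and replicate 3 below. Gene by gene this held for 4 of 7 tested myoid markers and 1 of 6 tested stromal markers, against 11.7% of all genes. Dcn, which encodes the small proteoglycan decorin, made up most of the stromal sum in KO replicates 1 and 2, at 247, 270 and 11.5 CPM in circSry KO and 18.1, 36.3 and 27.4 CPM in WT. In KO replicate 3 the stromal markers Pdgfra, Lum, Tcf21 and Cygb were within WT.

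Other lists differed from this, with Sertoli and spermatid sums above WT in all KO libraries and Leydig and spermatocyte sums below it in all. Gene by gene, all KO libraries were above WT for 3 of 5 tested Sertoli and 7 of 8 tested spermatid markers, against 11.6% of all genes. All were below WT for 5 of 6 tested Leydig and 5 of 8 tested spermatocyte markers, against 16.9%. Clu made up most of the Sertoli sum. In KO replicate 3 the Sertoli markers Sox9 and Gata4 were below all WT libraries, and the spermatocyte markers Sycp3 and H2ax above them. Macrophage markers, 7 of 8 detected in all libraries with C1qc at 0 in KO replicate 3, summed to 408, 247 and 33.9 CPM in circSry KO and to 24.8 to 36.5 CPM in WT. Endothelial markers, 8 of 8 detected, summed to 33.4, 47.1 and 13.4 CPM in circSry KO and to 28.4 to 41.3 CPM in WT. Sertoli markers, 6 of 8 detected in all libraries with Sox9 and Rhox5 at 0 in some, summed to 179, 327 and 156 CPM in circSry KO and to 62.0 to 82.4 CPM in WT. Leydig markers, 6 of 6 detected, summed to 267, 235 and 492 CPM in circSry KO and to 555 to 807 CPM in WT. Spermatid markers, 8 of 8 detected, summed to 12026, 8229 and 5043 CPM in circSry KO and to 1648 to 2692 CPM in WT. Spermatogonial markers, 6 of 6 detected, summed to 151, 133 and 80.2 CPM in circSry KO and to 109 to 127 CPM in WT. The split itself was shown by 1 of the 6 spermatogonial genes, against 11.7% of all genes. The part of these cells in the collagen levels was not tested.

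**Figure D4:**
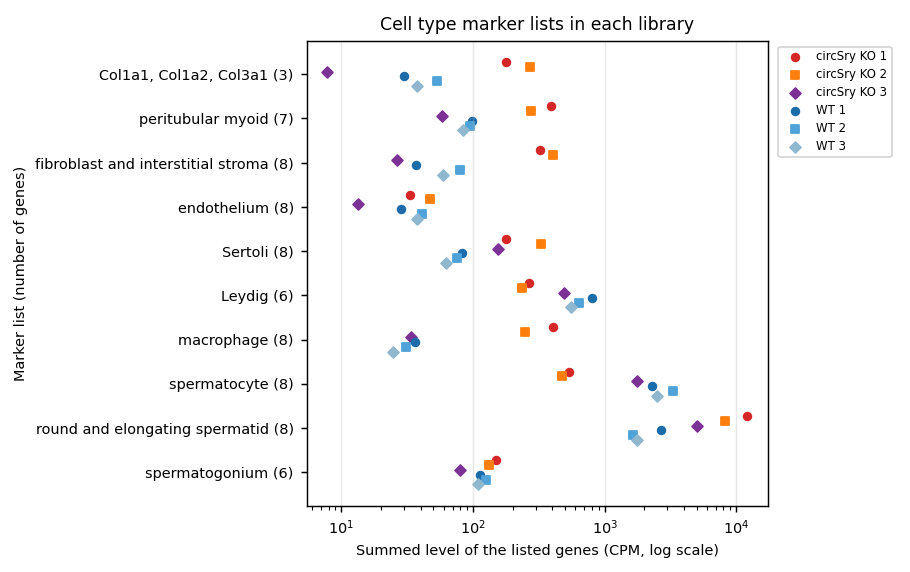
Summed CPM, on a log scale, of each list of cell type markers in each library, 1 point per library, with the number of genes in each list in brackets. The myoid and stromal lists are highest in circSry KO replicates 1 and 2 and lowest in replicate 3, as the sum of Col1a1, Col1a2 and Col3a1 is; the spermatocyte list is lowest in KO replicates 1 and 2.

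The deposited values also hold the length of transcript to which reads were assigned. RSEM divides a gene's reads among its transcripts, and the effective length behind a value, which follows from its count and FPKM, is their mean length weighted by estimated abundance. For Col22a1 it was 823, 900 and 683 bases in circSry KO and 859, 970 and 914 bases in WT, 9.37% of its longest annotated transcript of 8809 bases. Its annotated transcripts measure 659, 1210, 6915 and 8809 bases, so most of the molecules estimated for it were of the short models, if the models used for counting were these (GENCODE M21). For Col16a1 it was 2177, 2531 and 1047 bases in circSry KO and 2002, 2517 and 2724 bases in WT, 35.2% of 5206 bases. The high TPM of both genes was therefore computed on models much shorter than the longest transcript.

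Such short assignment was frequent among long genes. Below 50% of the longest transcript were 11 of the 36 tested collagen genes, or 30.6%, against 35.2% of all tested genes whose longest transcript has at least 5000 bases. The group included Col6a4 at 23.9%, Col5a1 at 31.1%, Col20a1 at 40.9% and Col15a1 at 42.7%. Col1a2, Col2a1 and Col4a2 were instead assigned close to full length, at 91.2% for Col1a2, 90.0% for Col2a1 and 96.3% for Col4a2. For Col3a1 the genotypes did not overlap: its effective length was 2882, 4321 and 3586 bases in circSry KO, below all WT libraries at 5338, 5310 and 5296 bases. The length in KO replicate 3 rests on 21 counts. Other collagen genes were separated too, in either direction, such as Col25a1 below WT and Col14a1 above it. No test of lengths was made, and the share of all genes without overlap was not computed. A shorter length raises TPM at the same count, though TPM is also scaled within each library. Relative to its CPM, the TPM of Col3a1 was higher than in WT in KO replicates 1 and 2. In KO replicate 3 it was within WT. For Col1a1 the genotypes overlapped, at 4883, 5705 and 5793 bases in circSry KO and 2776, 3947 and 5662 bases in WT. For Col4a1 they overlapped too, at 5525, 5921 and 3964 bases in circSry KO and 2815, 3812 and 5706 bases in WT. Among the 12 collagen genes with the highest mean TPM, rounding of the deposited FPKM values leaves up to 3.85% of error on a length, that of Col1a1 in KO replicate 3. It leaves more on the lengths of genes with fewer counts.

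**Figure D5:**
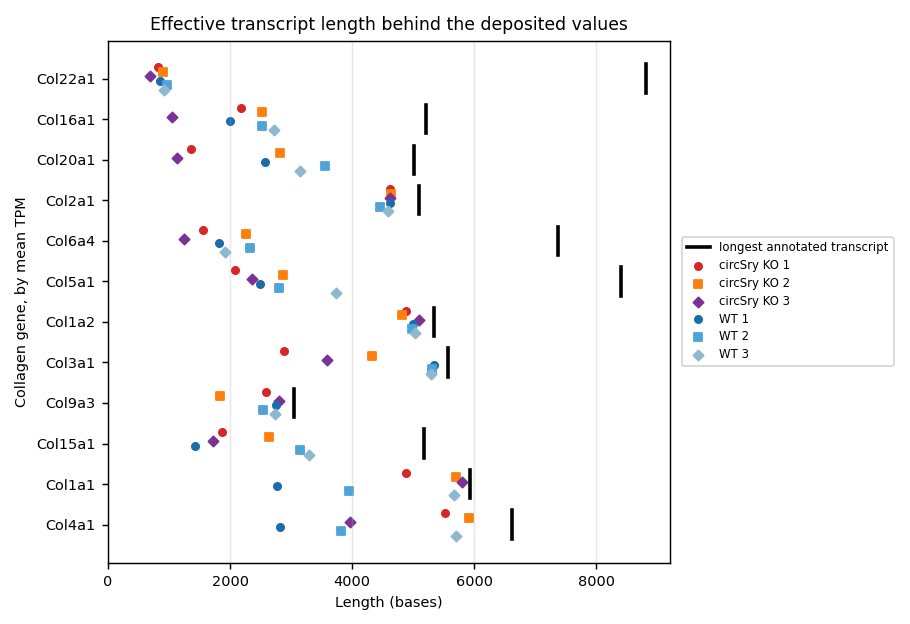
Effective length in bases behind the values of the 12 collagen genes with the highest mean TPM, 1 point per library, beside the longest annotated transcript (black bar). Col22a1 lies far left of its bar in all libraries, Col1a2 and Col2a1 close to it, and for Col3a1 the 3 circSry KO libraries lie left of the 3 WT libraries.

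The study's title concerns miR-138-5p, a microRNA that binds mRNAs through its seed, and the letters that pair with this seed were sought in collagen 3' UTRs. The mature sequence, from RefSeq, is shown with the seed, bases 2 to 8, in capitals, followed by the stretches of 2 fibrillar and 2 type IV genes with the matching letters CACCAGC in capitals, written as DNA on the gene's strand.
miR-138-5p: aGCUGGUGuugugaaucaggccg
Col1a1: aaatgtccCACCAGCccctcaac
Col3a1: tactcattCACCAGCatagaata
Col4a1: atgtgaaaCACCAGCtttcctca
Col4a2: caattctgCACCAGCactcattc
Such a site was in the 3' UTR of the longest coding transcript of 7 of the 44 collagen genes, or 15.9%, and of 13.5% of 13996 tested genes, with a median UTR of 1032 bases in the collagen genes and 1028 bases in all. The other collagen genes with a site were Col6a6, Col12a1 and Col13a1. Col6a6 and Col13a1 had too few counts to be tested, so the 15.9% covers untested genes while the 13.5% does not. Col1a1 and Col3a1 hold a site, and Col1a2 holds none. Whether a site bears on the level of a gene was not tested. A match of letters does not show binding, and levels of the microRNA were not analysed here.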

How the data were processed

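Primary spermatocytes had been sorted from testes with Hoechst dye, and TruSeq libraries, which do not mark strand, were made from Trizol RNA, per the labels' protocols. The genotype labels gave 3 circSry KO and 3 WT libraries. For each gene and library the deposited table gives estimated counts from RSEM, not normalized, and the TPM and FPKM that the authors computed, per the file headers. Tools listed in the submitters' processing notes are STAR 2.7.0f as well as RSEM 1.3.2 and edgeR 3.28.1, and the builds listed, without roles, are GRCm39 and mm9. A second deposited copy of the TPM values differed in 1 value, of no collagen gene.

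Here the estimated counts were rounded (those of collagen genes were whole) and fitted with edgeR 4.0.16 in R 4.3.3. Genes were kept by filterByExpr, libraries scaled by TMM, genotype tested by the quasi-likelihood F test, and p-values adjusted by Benjamini-Hochberg over every tested gene, with a threshold of 0.05. Each SE was derived from that test, as the absolute log2 fold change divided by the square root of the F statistic. Effective length was the count divided by FPKM and the library total. Gene positions, transcripts and 3' UTRs were read from GENCODE M21 (GRCm38) by gene identifier for all 44 genes; that build may not be the one used for counting. Floors are 3 counts per library and cover counting error only.

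The members and gene lists were chosen with earlier results of these data known. Named genes were Col1a1, Col1a2 and Col3a1, the 12 collagen genes with the highest mean TPM, the 10 with the smallest p, and of each pathway list the 2 members with the highest mean CPM and the 2 with the smallest p. The alternatives tried were other scaling factors (RLE, upper quartile), other filters (none, or 1 CPM in 3 libraries), other tests (DESeq2 1.42.0, limma-voom from limma 3.58.1, limma on log2(TPM + 1) and log2(TPM + 0.1)), a replicate block, removal of each library's trend on transcript length, and each library left out. Library orders on TMM-scaled CPM were added after seeing the data. On simulated counts of 16376 genes for circSry KO against WT, the edgeR steps found 44% of the genes made to differ 4-fold and 78% of those at 8-fold. They found 92% at 16-fold and 100% at 32-fold, and made 5 false calls. The simulated fold was the same in all KO libraries, with a spread taken from its fitted trend over all genes. These rates therefore do not describe collagen genes for which the KO libraries were split.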

Additional observations from a re-analysis of the deposited data

How the results depend on the processing

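Of 17 alternatives, leaving out circSry KO replicate 3 was the one under which collagen genes were called: 18 higher and 2 lower, so that over the left-out libraries the counts ran from 0 to 18 and from 0 to 2. For pathway genes these ranges were 0 to 14 higher and 0 to 3 lower, and DESeq2 called 1 higher. The median of the collagen genes stayed above 0 under all 17, at 0.08 to 0.93, and was 0.21 without circSry KO replicate 2. Over all genes edgeR called 0, against 548 higher and 321 lower with no filter, 1161 and 782 with DESeq2, 3319 and 2909 without KO replicate 3, 4 and 2 on log2(TPM + 1) and 4 and 3 on log2(TPM + 0.1). The median over the whole table shifted by -0.14 under limma-voom, -0.37 and -0.46 on log2(TPM + 1) and log2(TPM + 0.1), -0.18 on unfiltered log2(TPM + 1), -0.12 with the replicate block and -0.10 without KO replicate 3. The replicate numbers were not found to pair the libraries (correlations of deviations of 0.035, 0.334 and -0.272), and with the replicate block 0 collagen genes were called and their median was 0.56.

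Of 304 values of single collagen genes, 273 kept their direction and side of the threshold, 10 passed it, all without KO replicate 3, and 21, in 4 genes, were of the other sign; the cause was not tested. Col1a1 was at -0.059 on log2(TPM + 0.1). Col4a1 was at -0.39 on log2(TPM + 1), filtered or not, and -0.71 on log2(TPM + 0.1). Col20a1 was at 0.039 with upper-quartile factors, 0.036 with the length trend removed, at 0.43 and 0.45 on the TPM scales, and at -0.16 to 0.12 over left-out libraries. Col2a1 was at -0.013 with no filter, -0.085 with limma-voom, -0.070 with the replicate block, -0.46 and -0.52 on the TPM scales, and -0.31 to 0.35 over left-out libraries. On TMM-scaled CPM the count of genes with all KO libraries above WT was 3 instead of 1, and below WT 1 instead of 2.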
